A study of Mus musculus with 6 samples.

Results

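The zinc finger genes described here are the protein-coding genes of the deposited count table whose symbol is Zfp followed only by a number, with 10 or more raw counts in every one of 6 libraries. A total of 365 protein-coding genes matched the name. Zfp36 was left out by the rule, and 289 of the remaining 364 met the count minimum, out of 54532 genes in the table. The 289 were thus chosen by symbol and by their raw counts in the libraries compared. The libraries came from bone-marrow-derived mouse macrophages, phagocytic cells grown from marrow, all exposed to monosodium urate (MSU), the crystal of gout. RNA-seq libraries numbered 3 from cells labelled Tet2 knockout and 3 from cells labelled wild-type. The Tet2 protein is a dioxygenase that converts methylated cytosines to oxidised forms. No library without MSU entered the comparison, and the labels give neither the allele, the age of the mice nor the origin of replicates from separate animals or cultures. P-values therefore cover only how far these libraries scatter, and that scatter may be technical.

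Most proteins of this name carry C2H2 zinc fingers, short loops folded around a zinc ion that each contact a few bases of DNA, arranged in tandem arrays. Many also carry a KRAB domain, which binds the corepressor Trim28 and through it the histone methyltransferase Setdb1, a route by which cells silence transposable elements and imprinted loci. Genes of the KRAB type have multiplied by tandem duplication and lie in clusters. A smaller number of proteins with the same name act on RNA, ribosomes or ubiquitin and have few fingers.

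Library totals lay between 11997104 counts (wild-type replicate 2) and 14481843 counts (knockout replicate 1). The targeted gene was not lower in the libraries labelled knockout, with 33.7 CPM (read counts relative to library size, scaled between libraries by TMM) against 29.3 CPM in those labelled wild-type (log2 change 0.20, SE 0.07; edgeR adjusted p = 0.0159), so every direction below is that of the labels. A gene-level count over all exons cannot show a partial deletion. Macrophage markers were abundant, at a summed 5704 to 5978 CPM in the knockout-labelled and 5444 to 5818 CPM in the wild-type-labelled libraries, and 4 of 7 rose while 2 fell. The 6 fibroblast markers summed to 6448 to 6612 CPM against 6709 to 7185 CPM, with 1 higher and 3 lower. In every library this sum exceeded the macrophage marker sum, which gives no share of cells. Neutrophil markers summed to at most 1.36 CPM in any library with Ly6g at 0, T cell markers to at most 0.0702 CPM, and erythroid markers were at 0. B cell markers summed to at most 1.12 CPM. Endothelial markers summed to 39.6 to 40.7 CPM against 32.8 to 37.5 CPM, with 1 of 3 called higher. Mast or basophil markers summed to 2.27 to 2.88 CPM over all libraries and dendritic markers to 1.99 to 2.63 CPM. Of 15 proliferation markers 9 rose and 1 fell, with sums of 1182 to 1202 CPM against 959 to 965 CPM. Mitochondrial genes took 0.349% to 0.366% of counts against 0.240% to 0.275%. The part of these differences in the results below was not tested, and in bulk RNA fewer cells of a type and less RNA per cell cannot be told apart.

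The zinc finger genes were expressed at low levels. Their median mean count was 120.5 per library, against 426.5 for all protein-coding genes that met the same count minimum and the filter on low counts. In total 59 of 289 genes (20.4%) passed an edgeR adjusted p of 0.05, of which 18 rose and 41 fell in the libraries labelled knockout. Over all 13175 genes tested 40.9% passed, 21.6% higher and 19.2% lower. Over the 11602 protein-coding genes with the same count minimum 43.8% passed, 22.9% higher and 20.9% lower. Falls made up 69.5% of the calls among the zinc finger genes and 47.0% of the calls among all genes. The median log2 change of the 289 was -0.07, against 0.00 for all tested genes, and 185 of the 289 (64.0%) lay below 0, against 50.5% of all tested genes and 51.4% of those protein-coding genes. The groups were without overlap for 77 (26.6%), compared with 47.8% of all tested genes and 50.6% of those protein-coding genes. The median absolute log2 change of the 289 was 0.15, near the 0.16 of those protein-coding genes and the 0.17 of all tested genes. No zinc finger gene of the set reached a 2-fold change, and among the 59 called the median absolute log2 change was 0.30, beside 0.29 among all called genes. Since the count minimum had to be met in both groups, a gene nearly silent in either could not enter, and these counts describe the set without supporting a claim about it. Replicates of a label varied little, with a biological coefficient of variation common to all genes estimated at 2.63%. Under an assumed coefficient of 0.1, 16 passed, 8 higher and 8 lower, beside 14.3% of all genes. DESeq2 called 36, 11 higher and 25 lower, beside 31.5% of all genes.

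**Figure D1:**
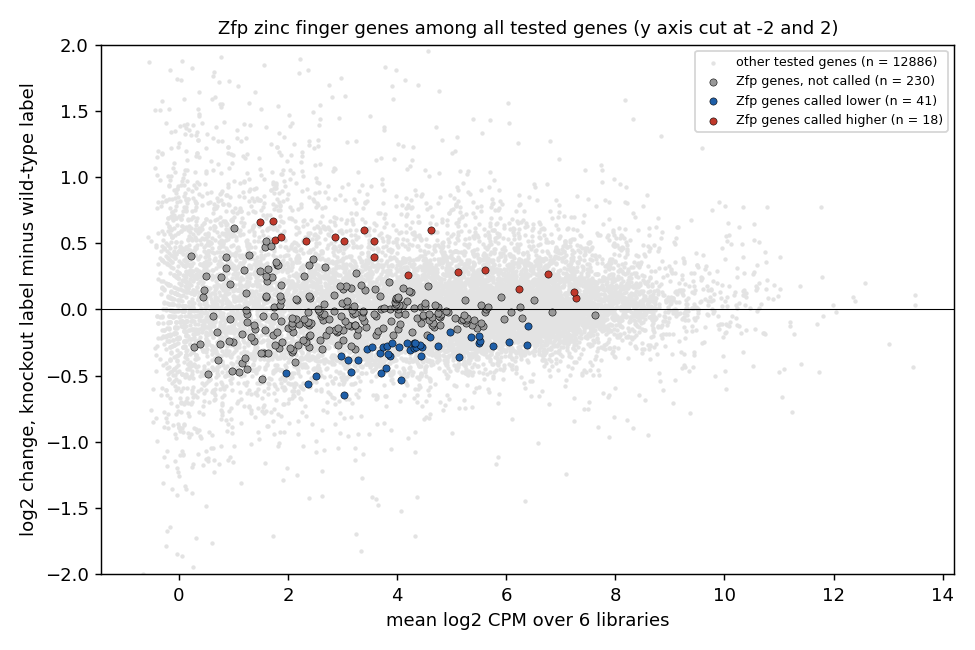
Log2 change (libraries labelled knockout minus wild-type) against mean log2 CPM over 6 libraries, with the 289 zinc finger genes coloured by call (edgeR adjusted p under 0.05) over the other tested genes in light grey; the vertical axis is cut at -2 and 2. The plot holds 41 falls and 18 rises, and no zinc finger gene passes a log2 change of 0.67 in either direction.

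Summed over the 289 genes, the knockout-labelled libraries held 4883, 4921 and 4899.96 CPM, and the wild-type-labelled libraries 5105, 4954 and 5093 CPM. The groups did not overlap, and wild-type replicate 2 was the closest to the knockout-labelled libraries. As a share of raw counts this was 0.481% to 0.485% against 0.5004% to 0.518%. Without wild-type replicate 2, 56 of the genes were called, 15 higher and 41 lower.

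How many were called followed the depth of counting. Of 122 genes with a mean count under 100, 9 passed (7.38%), 6 higher and 3 lower. Among 131 genes from 100 to under 500 counts 37 passed (28.2%), 7 higher and 30 lower. Among 36 with 500 or more 13 passed (36.1%), 5 higher and 8 lower. In the same count ranges all protein-coding genes that met the minimum passed in 20.9%, 36.8% and 58.8%, so the share was lower among zinc finger genes in each range. This difference was not tested. The ranges did not match depth fully, with median counts of 45.8, 206 and 668 for zinc finger genes against 47.5, 253 and 1186.5. In the middle range 846 of the 1508 called protein-coding genes, which include the zinc finger genes, fell.

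**Figure D2:**
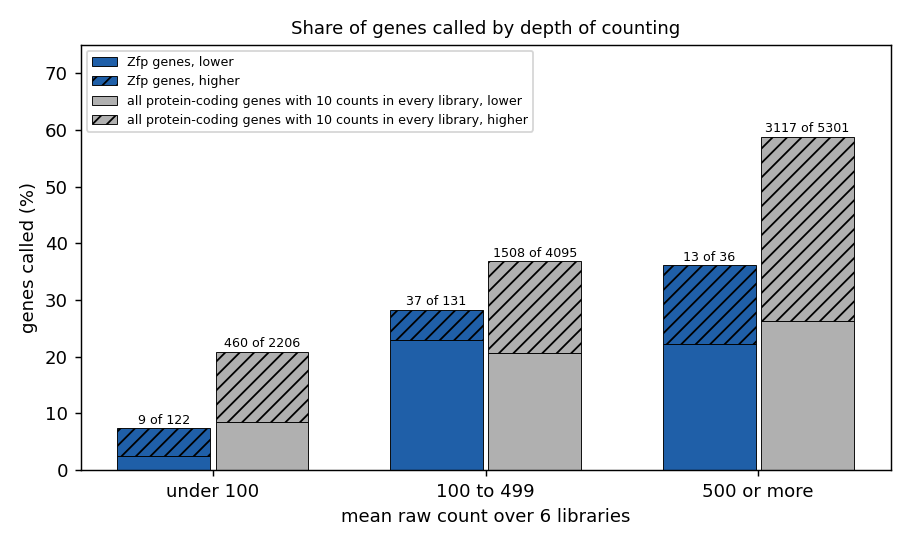
Percent of genes called (edgeR adjusted p under 0.05) by mean raw count over 6 libraries, plain for lower and hatched for higher, zinc finger genes in blue and all protein-coding genes with 10 counts in every library in grey. In the middle range 37 of 131 zinc finger genes were called, 30 of them lower, beside 1508 of 4095 genes.

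A KRAB domain was recognised in 174 of the 289 by a sequence profile, and 115 had none by that measure. KRAB genes were expressed at a median count of 79.4 and the others at 275. Calls numbered 26 of 174 among KRAB genes (14.9%; 9 higher, 17 lower) and 33 of 115 among the others (28.7%; 9 higher, 24 lower). Over all tested genes 40.9% passed. The median log2 changes of KRAB genes and the others were -0.06 and -0.07. Among genes with a mean count of 100 or more, 18 of 73 KRAB genes and 32 of 94 others passed, at median counts of 174 and 333. Below 100 counts 8 of 101 and 1 of 21 passed. All protein-coding genes that met the minimum passed in 20.9% under 100 counts, 36.8% from 100 to under 500 and 58.8% with 500 or more. The difference between KRAB genes and the others was not tested. By number of C2H2 finger patterns, 12 of 42 genes with at most 4 fingers passed (28.6%), 11 of 76 with 5 to 9 (14.5%), and 36 of 171 with 10 or more (21.1%). Each finger class held more falls than rises and a lower share called than all tested genes. Their median counts were 277, 178 and 101.

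The largest fall was in Zfp688 (ENSMUSG00000045251, mm10 chromosome 7, 127418967 to 127422068, minus strand), a KRAB gene with 2 finger patterns. Its level was 5.54, 6.54 and 6.74 CPM in the libraries labelled knockout and 10.2, 8.99 and 10.1 CPM in those labelled wild-type. The groups did not overlap, and the log2 change was -0.64 (SE 0.13; edgeR adjusted p = 3.51e-05). Zfp346 (ENSMUSG00000021481, chromosome 13, 55105311 to 55134825, plus strand), whose product binds double-stranded RNA, stood at 12.8, 14.3 and 13.8 CPM against 21.0, 20.5 and 17.7 CPM. This was a log2 change of -0.53 (SE 0.10; edgeR adjusted p = 1.49e-06) with no overlap. Zfp866 on chromosome 8 gave 12.1, 10.4 and 9.91 CPM against 14.6, 14.7 and 16.2 CPM (log2 change -0.48), although it overlaps Atp13a1 on the opposite strand, which was called higher, and the reads of such a pair cannot be told apart without strand. Zfp709, also on chromosome 8, gave 10.7, 12.005 and 12.3 CPM against 15.6, 15.5 and 16.5 CPM (log2 change -0.44). Zfp775 on chromosome 6 followed with 6.39, 7.81 and 7.87 CPM against 10.8, 11.5 and 8.42 CPM (log2 change -0.47), its wild-type replicate 3 lying close to the knockout-labelled ones. These 5 genes also passed under every alternative, with the highest adjusted p at 0.0365 for Zfp775.

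The other falls among the 10 largest were less firm. Zfp455 was lower by log2 -0.56 but not called without knockout replicate 3 (edgeR adjusted p = 0.0514) or wild-type replicate 1 (0.0961). Zfp560 was lower by -0.50 and not called without knockout replicate 1 (0.103). Zfp661, at -0.48 and close to the threshold (edgeR adjusted p = 0.0442), was not called without knockout replicate 3 (0.266), wild-type replicate 2 (0.131) or wild-type replicate 3 (0.0924), nor with DESeq2 (0.129), without the low-count filter (0.0645) or with the replicate number as a block (0.0517). Zfp511 and Zfp623 were each lower by -0.38. Zfp511 lies opposite Tubgcp2 on the other strand. Zfp623 was not called without knockout replicate 2 (edgeR adjusted p = 0.0729) or with DESeq2 (0.0543). With the assumed coefficient of 0.1, Zfp511 (0.0872), Zfp623 (0.0983) and Zfp661 (0.0954) were not called.

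Among the rises Zfp395 (ENSMUSG00000034522, chromosome 14, 65358389 to 65398930, plus strand) had the smallest adjusted p. Its level was 27.4, 31.6 and 29.7 CPM in the knockout-labelled and 21.0, 17.2 and 20.3 CPM in the wild-type-labelled libraries (log2 change 0.60, SE 0.08; edgeR adjusted p = 5.85e-10). The lowest knockout-labelled library was above the highest wild-type-labelled one. Zfp324 (ENSMUSG00000004500, chromosome 7, 12965838 to 12974236, plus strand), a KRAB gene, gave 12.9, 13.6 and 10.97 CPM against 8.24, 7.84 and 8.63 CPM (log2 change 0.60, SE 0.12; edgeR adjusted p = 1.27e-05). Zfp467, a regulator of the choice between fat and bone cell fates, gave 13.5, 13.5 and 14.5 CPM against 8.88, 8.50 and 11.5 CPM (log2 change 0.52). Zfp40, a KRAB gene, gave 8.42, 7.32 and 9.54 CPM against 6.04, 6.27 and 5.03 CPM (log2 change 0.54). These 4 rises passed under every alternative.

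Zfp950 was higher by 0.52 on the log2 scale, lay opposite Grk5 on the other strand, and was not called without knockout replicate 2 (edgeR adjusted p = 0.0564). Zfp595 was higher by 0.52 and not called without knockout replicate 3 (0.0590), without wild-type replicate 1 (0.227) or with DESeq2 (0.0736). Zfp526, Zfp292 and Zfp871 rose by 0.40, 0.30 and 0.29. Zfp710 was the most abundant of these 10, at 123, 119 and 116 CPM against 98.7, 94.6 and 104 CPM (log2 change 0.27, SE 0.04). With the assumed coefficient of 0.1, Zfp526 (0.0537), Zfp292 (0.0905), Zfp871 (0.127) and Zfp710 (0.135) were not called. Being called and free of overlap was a condition for naming these 20. Among genes below its mean count of 50, Zfp618, Zfp759, Zfp810 and Zfp873 were also called higher and none lower; of these 4, named after their values were seen, Zfp759 had the highest log2 change of the set (0.67, SE 0.22). Zfp810 was not called with DESeq2 (0.0839), the assumed coefficient of 0.1 (0.0579), or without knockout replicate 2 (0.0770), wild-type replicate 2 (0.0509) or wild-type replicate 3 (0.0694). Zfp873 was not called with DESeq2 (0.0728) or without knockout replicate 2 (0.0632), wild-type replicate 2 (0.0643) or wild-type replicate 3 (0.0705). Zfp618 was not called under 10 of 16 alternatives, with adjusted p up to 0.305 without knockout replicate 1.

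**Figure D3:**
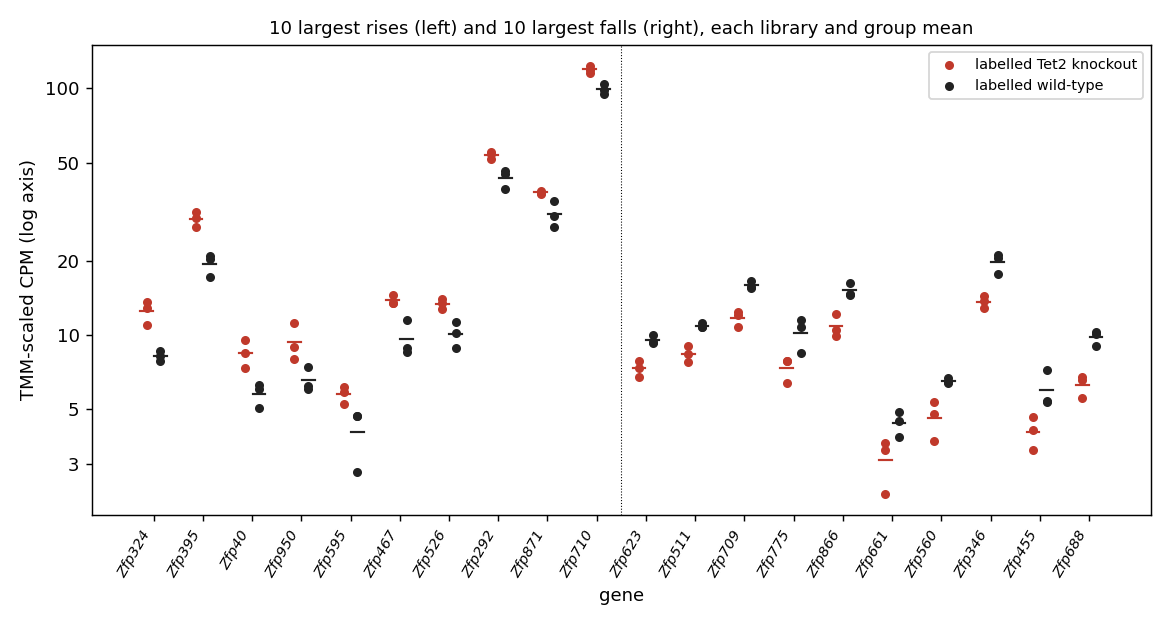
TMM-scaled CPM on a log axis in each library (points) with group means (bars) for the 10 largest rises, left of the dotted line, and the 10 largest falls, right of it; red is labelled knockout and black labelled wild-type. The groups separate in all 20, which the choice of genes required.

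Methylation falls on CpG, the base pair step that the enzyme acts on. The start regions of members are described here for their sequence alone. Of the 289 genes 242 had a promoter entry in RefSeq (GRCm38.p6), read here as the 250 bases before the start nearest to the deposited 5′ end. For 18 of the 242 that start lay more than 1 kb from the deposited end, by up to 98112 bases, among them 4 genes called lower and 1 called higher. Shown are Zfp688, the largest fall, Zfp553, the first member of the same cluster, the fall with the smallest adjusted p among the 10 largest (Zfp346) and Zfp324, the largest of the 10 named rises. Sequences run 5′ to 3′ on the gene's strand and capitals mark each CG.
Zfp688 (chr7:127422035-127422284, minus strand): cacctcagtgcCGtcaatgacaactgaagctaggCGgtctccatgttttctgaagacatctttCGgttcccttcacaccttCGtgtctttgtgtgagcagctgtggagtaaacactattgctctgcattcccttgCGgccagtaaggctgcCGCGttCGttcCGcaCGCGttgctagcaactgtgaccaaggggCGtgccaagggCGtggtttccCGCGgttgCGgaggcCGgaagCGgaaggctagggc
Zfp553 (chr7:127232811-127233060, plus strand): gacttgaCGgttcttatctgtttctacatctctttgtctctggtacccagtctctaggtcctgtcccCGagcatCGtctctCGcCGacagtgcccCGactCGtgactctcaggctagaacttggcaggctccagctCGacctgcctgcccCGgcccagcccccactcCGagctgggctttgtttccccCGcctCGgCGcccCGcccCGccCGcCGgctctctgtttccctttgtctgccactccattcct
Zfp346 (chr13:55105059-55105308, plus strand): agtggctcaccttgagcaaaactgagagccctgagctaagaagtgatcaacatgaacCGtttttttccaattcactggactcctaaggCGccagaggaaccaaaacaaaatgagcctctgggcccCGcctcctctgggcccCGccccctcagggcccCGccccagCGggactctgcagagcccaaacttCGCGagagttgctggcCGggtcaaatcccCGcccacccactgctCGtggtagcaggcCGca
Zfp324 (chr7:12965588-12965837, plus strand): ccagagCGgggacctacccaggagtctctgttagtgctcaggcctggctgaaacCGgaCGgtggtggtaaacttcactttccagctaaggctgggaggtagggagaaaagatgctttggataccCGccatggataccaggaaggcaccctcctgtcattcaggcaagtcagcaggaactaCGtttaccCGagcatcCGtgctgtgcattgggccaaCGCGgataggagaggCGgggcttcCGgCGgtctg
The CG count was 18 in Zfp688, 17 in Zfp553, 12 in Zfp346 and 12 in Zfp324. Over the 242 promoters the median was 11 CG, and 139 (57.4%) held 10 or more. Over 9176 promoters of protein-coding genes with the same count minimum the median was 16, and 76.4% held 10 or more. Among members called lower 26 of 35 promoters (74.3%) held 10 or more, with a median of 17, near the 76.4% and 16 of those genes. Among members called higher 7 of 15 did, with a median of 9. A link between CG count and call was not tested. With starts within 1 kb only, 132 of 224 (58.9%) held 10 or more, beside 78.2% of 8410 promoters, as did 25 of 31 called lower and 7 of 14 called higher (median 10.5). Motifs were searched on both strands. The letters CCGGAAG, a core bound by ETS factors, stood in 16.5% of the 242 and in 14.7% of the 9176, TGACGTCA, the cyclic AMP response element, in 2.89% and 2.81%, and ACTACAA, part of the element of Zfp143, in 7.02% and 4.18%. Among members called lower CCGGAAG stood in 5 of 35 promoters, TGACGTCA in 2 and ACTACAA in 0. Among those called higher they stood in 2, 1 and 0 of 15. A link between motif and call was not tested, and these numbers are small. CG content is a description of the sequence, and methylation was not measured.

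By role, 4 of 7 members linked to RNA and ribosomes were called (57.1%), near the 58.8% of protein-coding genes with 500 or more counts, the range of this group's median count of 1061. Zfp622, a cofactor of large ribosomal subunit maturation, gave 80.1, 71.3 and 76.4 CPM against 90.2, 92.8 and 92.0 CPM (log2 change -0.27, SE 0.05; edgeR adjusted p = 2.93e-07). Zfp598, the ubiquitin ligase that marks collided ribosomes, gave 41.2, 42.5 and 39.8 CPM against 48.1, 50.4 and 49.2 CPM (log2 change -0.26, SE 0.06; edgeR adjusted p = 0.000171). Neither pair of groups overlapped, and with Zfp346 these were the 3 that fell. Zfp106, an RNA-binding protein gene, rose by 0.13 (157 against 143 CPM). It was not called with the GC and length trends removed (edgeR adjusted p = 0.0825). Zfp638, Zfp706 and Zfp326 had log2 changes of 0.07, -0.07 and -0.05 and were not called. With the assumed coefficient of 0.1, Zfp346 alone of this group was called (Zfp622 had 0.130, Zfp598 0.177 and Zfp106 0.536).

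Of 5 members that silence retroelements or maintain imprints, 2 were called lower and 0 higher. Their share called (40.0%) was near that of all tested genes (40.9%). Protein-coding genes with 100 to under 500 counts, the range of this group's median count of 218, were called in 36.8%. Zfp568, a repressor of a placental Igf2 transcript, gave 19.2, 18.5 and 16.3 CPM against 24.8, 19.4 and 20.3 CPM (log2 change -0.26; edgeR adjusted p = 0.0158), and the nearest libraries differed by less than 1 CPM. It was not called with DESeq2 (0.0789), without knockout replicate 3 (0.138) or without wild-type replicate 1 (0.287). Zfp445, a keeper of imprints, had overlapping groups, at 80.4 ± 3.40 and 87.4 ± 6.09 CPM (SD, n = 3 each; log2 change -0.12). It was not called without wild-type replicate 3 (edgeR adjusted p = 0.330), knockout replicate 1 (0.0614) or knockout replicate 2 (0.178), nor with DESeq2 (0.0995). With the assumed coefficient of 0.1 neither was called (Zfp568 0.235, Zfp445 0.595). Zfp809, which silences murine leukaemia virus, stood at 15.8 ± 1.32 and 16.1 ± 2.16 CPM (SD, n = 3 each), a difference smaller than its spread. The imprint keeper Zfp57 was near the count minimum, at 1.40 and 1.57 CPM. Zfp932, at 5.66 and 4.50 CPM, was not called (edgeR adjusted p = 0.101).

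Of 9 regulators without a KRAB domain 3 were called (33.3%, beside 40.9% of all tested genes). Protein-coding genes with 100 to under 500 counts, the range of this group's median count of 427, were called in 36.8%. Among the 3 called, Zfp143, an activator that binds many promoters, fell from 29.4 ± 1.70 to 24.2 ± 1.28 CPM (SD, n = 3 each; log2 change -0.27). Zfp335, a partner of histone H3 lysine methyltransferases, was lower by -0.17; it lies opposite Pcif1 on the other strand, which also fell. Zfp335 was not called without knockout replicates 1 (edgeR adjusted p = 0.131) or 3 (0.0852) or wild-type replicates 1 (0.142) or 3 (0.0954), nor with DESeq2 (0.112) or without the low-count filter (0.0608). Zfp292 was the 1 that rose. With the assumed coefficient of 0.1, Zfp143 (0.163) and Zfp335 (0.448) were not called. The other 6, Zfp64, Zfp148, Zfp281, Zfp318, Zfp384 and Zfp462, had log2 changes between -0.10 and 0.10. Of 7 listed members linked to fat and cell differentiation 1 was called (14.3%), beside 40.9% of all tested genes. The list did not hold Zfp467, described above as a regulator of fat and bone cell fates and called higher, so this share depends on the list. Protein-coding genes with 500 or more counts, the range of this group's median count of 513.5, were called in 58.8%. The called member was Zfp516, a driver of brown fat genes, at 77.1, 81.7 and 78.9 CPM against 72.9, 67.4 and 72.8 CPM (log2 change 0.16). It was not called with GC and length trends removed (0.0735) or the assumed coefficient of 0.1 (0.458).

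The 4 genes with the highest mean CPM moved by at most 0.13 on the log2 scale. Zfp91, an atypical ubiquitin ligase gene linked to NF-kappaB signalling, stood at 194 ± 2.99 and 199 ± 8.78 CPM (SD, n = 3 each; edgeR adjusted p = 0.315). Zfp263 stood at 114 ± 4.34 and 115 ± 4.76 CPM. Zfp207, a kinetochore protein gene, was called with overlapping groups at 160.3 and 150.7 CPM (edgeR adjusted p = 0.0449). The call did not hold with RLE scaling (0.0584), upper-quartile scaling (0.131), DESeq2 (0.168), limma-voom (0.0523), no low-count filter (0.0934), the replicate number as a block (0.0645) or the assumed coefficient of 0.1 (0.709). Nor did it hold without knockout replicates 2 (0.0655) or 3 (0.321) or wild-type replicates 2 (0.104) or 3 (0.287). Per kilobase of gene length, Zfp263 was the most abundant member at 25.3 CPM per kb, followed by Zfp207 at 23.4 and Zfp91 at 19.6.

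By position, 162 of the 289 genes lay in 25 clusters, defined as 3 or more members on a chromosome with neighbouring starts at most 500 kb apart, and 131 of the 162 were KRAB genes. In clusters 28 of 162 were called (17.3%), 8 higher and 20 lower. Outside clusters 31 of 127 were called (24.4%), 10 higher and 21 lower. Median log2 changes were -0.07 and -0.06, and median counts 100.75 and 206. Over all tested genes 40.9% were called. Among KRAB genes 19 of 131 were called in clusters (14.5%) and 7 of 43 outside (16.3%). The difference by position was not tested. Members of a cluster are close paralogs in many cases, so their values are not independent. Of the 289 genes 168 shared no stretch of 75 bases with a transcript of another gene, and 32 shared over 10% of such stretches, among them 3 called genes, Zfp617 (36.5%), Zfp992 (34.5%) and Zfp652 (11.4%), whose values are uncertain. No member lay within 10 Mb of Tet2 on chromosome 3.

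The cluster on chromosome 7 from 127233061 to 127885996 held 10 members, of which 4 fell and none rose, and 9 had a log2 change below 0 (median -0.27). Over all tested genes 40.9% were called, 21.6% higher and 19.2% lower, and 50.5% lay below 0. The cluster was singled out after the values were seen, and no test was made of it. Zfp768 gave 19.5, 18.8 and 18.8 CPM against 24.7, 24.2 and 24.0 CPM (log2 change -0.35), the tightest pair of groups among its members. Zfp553 gave 15.1, 17.9 and 17.6 CPM against 22.9, 20.1 and 19.4 CPM (log2 change -0.31). Zfp629 gave 17.9, 17.3 and 19.5 CPM against 21.8, 20.5 and 22.6 CPM (log2 change -0.25). None of these pairs of groups overlapped. Zfp553 was not called without knockout replicate 1 (edgeR adjusted p = 0.0646) or wild-type replicate 1 (0.0631), and Zfp629 was not called with DESeq2 (0.0560) or without knockout replicate 2 (0.0774) or wild-type replicate 3 (0.0657). Zfp688, given above, lies between Zfp768 and Zfp629. Zfp747 (-0.30) and Zfp689 (-0.33) were lower without passing, Zfp771, Zfp646 and Zfp764 had log2 changes of -0.11, -0.10 and -0.04, and Zfp668 stood at 0.02. In the same stretch 16 other protein-coding genes were tested, 2 higher and 2 lower, with 10 below 0 and a median of -0.03. These 16 were taken by position and may include zinc finger genes under other names. Of the 10 members 7 lay below 0 under every alternative, the exceptions being Zfp668, Zfp764 and Zfp771, and 3 to 5 were called lower except with the assumed coefficient of 0.1, where only Zfp688 was.

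**Figure D4:**
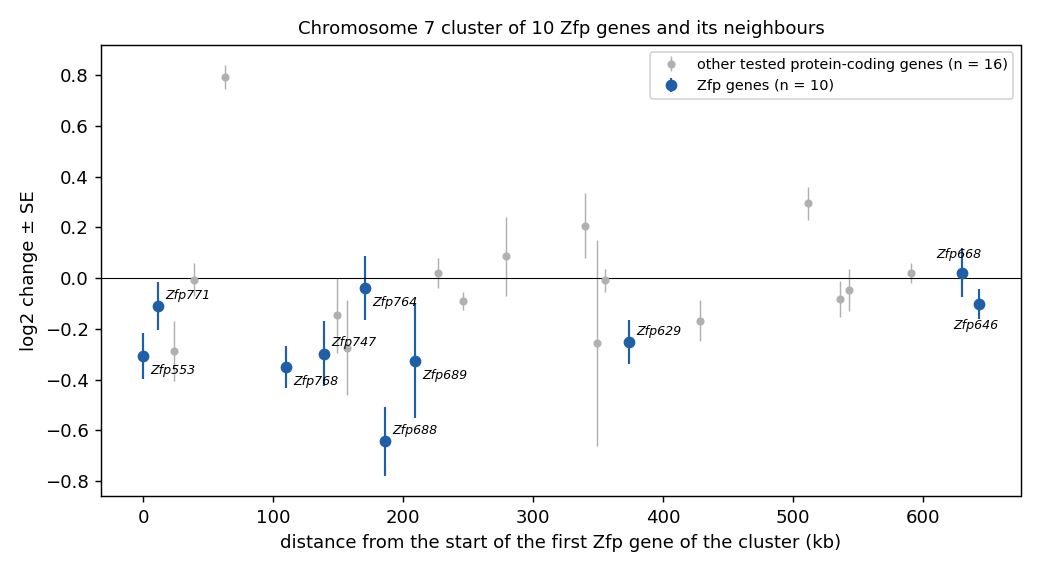
Log2 change ± SE (libraries labelled knockout minus wild-type) against distance from the start of the first zinc finger gene in the chromosome 7 cluster, for its 10 zinc finger genes (blue) and 16 other tested protein-coding genes of the stretch (grey). Of the blue points 9 lie below 0, and the grey points fall on both sides with 10 below 0. The grey genes were not screened for zinc fingers.

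Other clusters differed in direction. All members also lay below 0 in clusters of 3 on chromosomes 5, 7 (from 43296197), 15 (from 75616679) and 16. The chromosome 15 cluster had a median of -0.30, with 1 member called lower. On chromosome 7 the clusters from 7114690 and from 42473386 had medians of 0.23 and 0.25, with 1 member below 0 in each and none called. On chromosome 6 from 47835661 to 48623227, 1 of 8 members rose, Zfp467, and 2 fell, Zfp775 and Zfp746. Zfp746, whose product is a substrate of the ubiquitin ligase parkin and represses the gene of Pgc-1a, gave 30.03, 33.8 and 28.3 CPM against 38.5, 39.0 and 40.9 CPM, with no overlap. Its log2 change was -0.36 (edgeR adjusted p = 4.09e-06), and it was chosen after its values were seen, as one of the 8 falls called with the assumed coefficient of 0.1. On chromosome 8 from 71882019 to 71993792 the 4 members all lay below 0 (median -0.27), with Zfp709 and Zfp617 called. About 2 Mb before it, 2 of 5 members fell, Zfp866 and its neighbour Zfp869 (log2 change -0.35), and 0 rose. Without wild-type replicate 3 only 2 of the first 4 lay below 0. Without wild-type replicate 2 only 1 was called lower, as with the assumed coefficient of 0.1. On chromosome 17 from 21008903 to 23599487, 23 members, all KRAB genes, had a median of -0.12 with 18 below 0. Zfp40 and Zfp52 rose (0.54 and 0.26) and Zfp758 and Zfp943 were lower (-0.30 and -0.28). None of the 23 was called lower without knockout replicate 3, with DESeq2 or with the assumed coefficient of 0.1, and Zfp52 was not called with DESeq2 (0.0645), without wild-type replicate 2 (edgeR adjusted p = 0.115) or with that coefficient (0.213). Of the 23, 14 were below 0 without knockout replicate 3 or without wild-type replicate 1. The cluster on chromosome 13 from 67038596 to 67827002 had 16 members, all KRAB genes, and a median of 0.05. It held both the highest log2 change, that of Zfp759 (3.72, 3.98 and 3.94 CPM against 2.91, 1.49 and 2.81 CPM), and the second largest fall, that of Zfp455 (4.63, 4.12 and 3.41 CPM against 7.18, 5.36 and 5.39 CPM), whose starts are next to each other among members. The call of Zfp759 was lost without wild-type replicate 2 (edgeR adjusted p = 0.130) and with DESeq2 (0.0510). A separate cluster of 10 genes on chromosome 17, from 32771236 to 33631779, held 1 rise, Zfp871, and 0 falls.

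**Figure D5:**
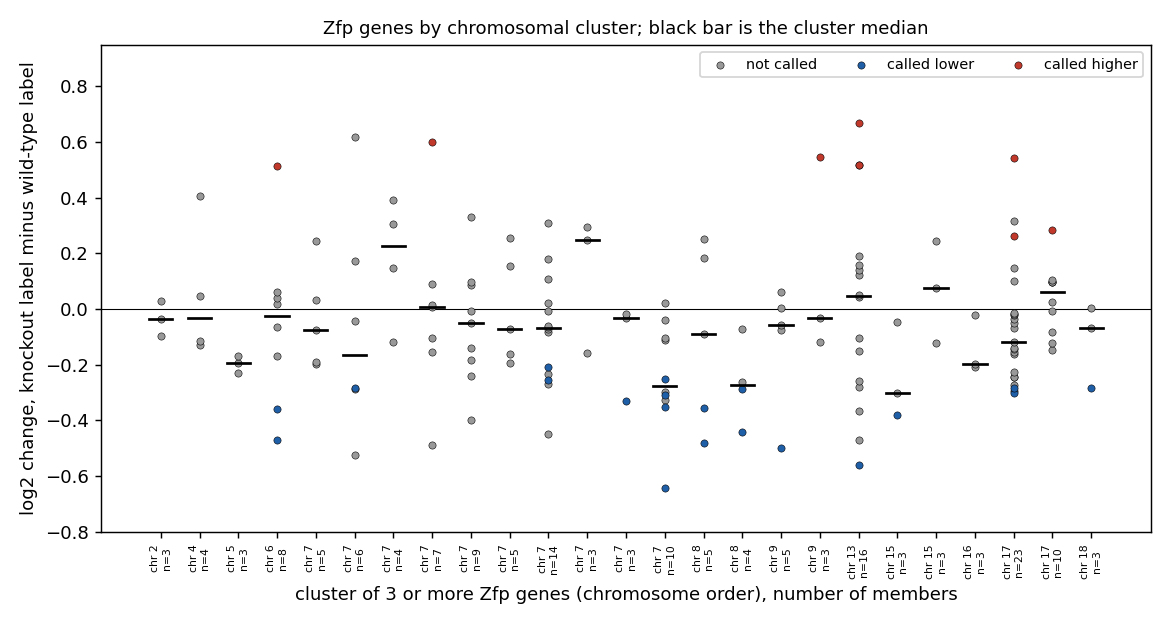
Log2 change of each zinc finger gene in the 25 clusters of 3 or more members, ordered by chromosome, with the black bar at the cluster median and colours for calls. The chromosome 7 cluster of 10 lies mostly below 0 (median -0.27), and the chromosome 13 cluster of 16 spans from -0.56 to 0.67 around a median of 0.05.

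The partners of KRAB proteins changed in both directions, with 10 of 31 tested genes higher and 7 lower (54.8% called). This share was near the 58.8% of protein-coding genes with 500 or more counts, the range of the list's median count of 991, and above the 40.9% of all tested genes. Trim28, the corepressor that KRAB domains bind, stood at 188 CPM against 220.1 CPM, a log2 change of -0.22 with an SE of 0.03 (edgeR adjusted p = 2.73e-08). Setdb1, its histone methyltransferase partner, rose from 62.2 to 69.7 CPM (log2 change 0.16). Daxx, a histone chaperone gene, rose from 83.4 to 109.8 CPM (log2 change 0.40), and Mphosph8, a gene of the HUSH silencing complex, fell from 45.7 to 36.1 CPM (log2 change -0.34). The histone deacetylase gene Hdac1 rose by 0.21. Hdac2, of the same list and given here outside the naming rule, was lower (log2 change -0.22, edgeR adjusted p = 0.000316). Among related families, 1 of 18 tested Zscan and Zkscan genes rose and 2 fell, 2 of 32 Zbtb genes rose and 13 fell, and 2 of 13 Klf genes rose and 7 fell. Over all tested genes 21.6% rose and 19.2% fell.

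At the count minimum, Zfp521, Zfp551, Zfp964 and Zfp979 were just inside with a lowest count of 10, and their log2 changes were -0.46, -0.49, 0.25 and 0.41, each with an SE of at least 0.29. Just outside were Zfp808 and Zfp963 with a lowest count of 9 and Zfp2 and Zfp286 with 8, at log2 changes of -0.02, -0.55, -0.49 and 0.11. Of the 75 matching genes outside the rule 24 had no count in any library and 12 were tested.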

How the data were processed

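Raw read counts per gene, deposited by the authors for 6 libraries, were used without change. Per the submitters' processing notes, fastp, STAR, featureCounts and mm10 were used; versions and the strand setting are not given in the sources used here. Per the labels' protocols, RNA came from RNeasy Plus Mini columns and libraries from the NEBNext Ultra RNA kit. The authors' table also gives gene length in bases, another deposited quantity, used for CPM per kb.

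Counts were fitted in R 4.3.3 with edgeR 4.0.16 (filterByExpr with minimum count 10, TMM, robust quasi-likelihood test, genotype as the only term, prior count 0.125), over 13175 genes, with Benjamini-Hochberg adjustment over all of them and a threshold of 0.05. SEs are the log2 change divided by the square root of the F statistic. With 3 libraries a label, the smallest p of an exact permutation test is 0.1. The test was also run on counts simulated as independent libraries at the fitted spread, which cannot show whether the replicate scatter is technical. Alternatives were DESeq2 1.42.0, limma-voom (limma 3.58.1), scaling by RLE or by the upper quartile, other filters, an assumed coefficient of variation, the replicate block, leaving out each library, other count minimums and linking distances. A GC and length offset (GENCODE M21 transcripts) was added after seeing the data, as were promoter counts limited to starts within 1 kb.

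KRAB domains and fingers were found in translated GENCODE M21 coding sequences, because no protein table was used here. The short KRAB pattern planned (tryptophan, 7 to 11 residues, then leucine and tyrosine) found 112 members. A profile built from its matches (pyhmmer 0.12.3, E-value at most 0.0001) found 174 and was chosen after seeing that. Named genes were the 10 largest rises and falls among called genes with a mean count of 50 or more and no overlap, the 4 highest by CPM, role groups, cluster extremes and genes at the count minimum. Members and lists were chosen with earlier results of these data known. Figures were drawn with matplotlib 3.10.9.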

Additional observations from a re-analysis of the deposited data

How the results depend on the processing

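The count of zinc finger genes called stayed within 1.5 times of 59 under all alternatives but DESeq2 (36, 11 higher and 25 lower) and the assumed coefficient of variation of 0.1 (16, 8 higher and 8 lower, with 1885 of all genes called in place of 5385). The median log2 change was negative under all alternatives, and moved by more than the spread between libraries with upper-quartile scaling alone (-0.0859, where the median of all genes was -0.02). Leaving out 1 library gave 50 to 56 calls, 15 to 19 higher and 32 to 41 lower, a median from -0.08 to -0.06, and 4725 to 5177 calls over all genes. Other count minimums gave 60 (mean count of 10), 58 (20 in every library) and 61 calls (none). Linking distances of 250 kb and 1 Mb put 139 and 179 genes in clusters. No zinc finger gene called both as reported and under an alternative changed direction between them. No pairing by replicate number was visible: deviations from the group means of the same-numbered libraries correlated at 0.00, -0.01 and -0.02. These values cannot show whether samples were prepared in pairs. With the replicate block 57 genes were called, 56 of them also without it, and 16 rose and 41 fell. The median SE of the zinc finger genes was 0.13 on the log2 scale, against 0.08 for all tested genes; under 100 counts it was 0.21 both for them and for protein-coding genes in that range.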

Other observations

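The largest changes among the tested genes of the name family lay in genes below the count minimum. Of the 12 tested genes with fewer than 10 counts in some library, 2 were called, beside 40.9% of all tested genes, and both passed a 2-fold change. None of the 289 did, but their count minimum had to be met in both groups, so no conclusion is drawn from this contrast. Zfp811 on chromosome 17 had raw counts of 40, 41 and 19 under the knockout label against 15, 7 and 19 under the wild-type label, a log2 change of 1.23 (SE 0.31; edgeR adjusted p = 0.000659), and the third libraries of both groups were equal in count. Zfp593 on chromosome 4 had raw counts of 2, 4 and 7 against 12, 20 and 12, a log2 change of -1.78 (SE 0.48; edgeR adjusted p = 0.00152), with no overlap. Zfp593 reached 10 counts under the wild-type label alone, so it passed the low-count filter only through the group where it was high. Both genes were named after their values were seen, and both rest on few counts.

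Transcripts of the 289 genes had a median GC content of 44.3% and a median length of 3712 bases, against 49.5% and 3318 bases for all tested genes. With GC and length trends removed 62 of the 289 were called, 16 higher and 46 lower, and the median log2 change was -0.07.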
